A study of Mus musculus with 11 samples.

Results

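Cyp26a1, Cyp26b1 and Cyp26c1 encode the cytochrome P450 enzymes that break down retinoic acid (RA). They were followed by name through every probe set that carries a single gene symbol, and 2 of the 3 genes, Cyp26a1 and Cyp26b1, have a probe set of their own (1 each), among 18194 such genes on the array. Cyp26c1 has none and was not measured here. RNA came from 7-week-old W/Wv mice, which carry mutant Kit alleles that leave the testis without most of its germ cells, so that Sertoli cells make up much of the seminiferous epithelium. All mice shared this genotype and age, and there was no wild-type array and no treated group. Trypan blue injected through the efferent ducts marked 3 regions: the rete testis (RT), the duct network that collects the tubules, the Sertoli valve (SV), the end piece of the seminiferous tubule that opens into it, and distal convoluted seminiferous tubules (ST). Testes were kept in RNAlater and cut under a dissecting microscope. Each array held RNA of 20 testes, and the labels give 3 arrays of RT, 4 of SV and 4 of ST, whereas the design text of the series gives 3 per region. SV pieces were small fragments cut beside the RT, and the study calls it highly likely that they held some rete testis cells.

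Retinol is taken up from the blood, oxidized first to retinal and then to RA, and RA binds the receptors RAR and RXR on DNA to switch genes on. CYP26 enzymes hydroxylate RA in the cells that express them and so set where RA can act. In the testis RA drives spermatogonia to differentiate, and the study cites reports that germ cells can start meiosis without it. CYP26B1 is known for keeping RA from germ cells of the fetal testis, and Cyp26a1 is a gene that RA itself induces in many tissues.

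The promoters of both measured genes are shown because they differ in a kind of sequence that RA receptors bind. They are RefSeq windows on GRCm38.p6, 250 bases before to 50 after the annotated start, read 5′ to 3′ on the gene's strand. That of Cyp26a1 lies at chr19:37697558-37697857 on the plus strand and that of Cyp26b1 at chr6:84593761-84594060 on the minus strand. Capitals mark a pair of receptor half-sites, where present, and the letters TATAAA.
Cyp26a1: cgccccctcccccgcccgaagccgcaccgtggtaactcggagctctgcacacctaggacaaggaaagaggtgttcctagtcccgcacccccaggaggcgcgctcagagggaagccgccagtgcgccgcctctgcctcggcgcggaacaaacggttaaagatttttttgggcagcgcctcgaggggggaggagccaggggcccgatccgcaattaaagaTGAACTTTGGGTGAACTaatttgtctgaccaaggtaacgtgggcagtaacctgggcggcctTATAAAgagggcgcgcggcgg
Cyp26b1: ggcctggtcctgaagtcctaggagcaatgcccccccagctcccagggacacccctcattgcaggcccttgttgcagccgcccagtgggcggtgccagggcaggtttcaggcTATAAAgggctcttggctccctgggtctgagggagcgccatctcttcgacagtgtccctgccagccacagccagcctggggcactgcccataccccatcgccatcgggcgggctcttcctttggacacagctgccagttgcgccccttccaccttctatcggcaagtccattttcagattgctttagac
The capitals at bases 219 to 235 of the Cyp26a1 window read, on the other strand, as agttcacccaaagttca, that is 2 copies of AGTTCA in the same direction with 5 bases between them. A search of both strands for this spacing, with AGTTCA or AGGTCA in either place, found it in 13 of 32851 promoters (0.0396%), and with AGTTCA in both places in 8 (0.0244%). Single half-sites, which the pair contains, occur in 27.7% of promoters. TATAAA, searched on both strands, stands at bases 280 to 285 of the Cyp26a1 window and 112 to 117 of the Cyp26b1 window, and 13.6% of promoters hold it. The match in Cyp26a1 lies after the annotated start and that in Cyp26b1 before it. Neither the Cyp26b1 window nor that of Cyp26c1 (chr19:37685430-37685729, plus strand) holds the pair, and neither do those of the 42 other retinoid genes described further on that have a window. These matches are letters only, and binding was not measured. Only AGTTCA and AGGTCA were searched, so the absence of the pair holds for these 2 spellings of the half-site alone. Pairs of them spaced by 1 and by 2 bases were in 27 and 13 promoters, and in no Cyp26 window. Both measured windows have 62.3% G and C, with 26 CG pairs in Cyp26a1 and 9 in Cyp26b1.

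Signals were read as MAS5.0 values, which are proportional to brightness and comparable between arrays for one probe set but not between probe sets. The median signal of an array was 65.8 to 110.4. Markers set RT apart from ST. All 10 rete testis markers were called higher in RT, while the 15 Sertoli cell markers had 9 calls lower and 0 higher. Of 9 measured efferent duct and epididymis markers, 5 were called higher in RT than in ST and 2 in SV. Against ST, 10.2% of all probe sets were called higher and 5.48% lower in RT, and 1.5% higher in SV. No marker list was specific to SV, so the markers did not place its pieces. In SV, 8 of the 10 rete markers were higher than in ST, and no Sertoli marker was called in limma (0 above and 5 below ST at p under 0.05 without adjustment). Arrays of replicates 1 and 2 stood apart from those of replicates 3 and 4. After the region means were removed, arrays of different regions correlated at 0.168 to 0.670 within a set and at -0.580 to -0.276 across sets over the probe sets brighter than the median, as a description. RT replicate 3, the only RT array of the second set, had a median efferent duct marker level of 0.69 above the ST mean on the log2 scale, against 4.09 and 4.35 in RT replicates 1 and 2.

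Cyp26a1 was higher in SV than in RT or distal ST. Its signal in the SV arrays was 392, 359, 206 and 317 in replicates 1 to 4. In the ST arrays it was 6.56, 8.59, 9.92 and 7.66. In the RT arrays it was 17.3, 16.4 and 97.3. No SV array came near any ST array, the 3 RT arrays lay between the SV and the ST arrays, and RT replicate 3 lay far above the other RT arrays. The means were 318 ± 81.2 in SV (SD, n = 4), 43.6 ± 46.5 in RT (SD, n = 3) and 8.18 ± 1.42 in ST (SD, n = 4). In each SV array at least 64.0% of all probe sets read at or below Cyp26a1, and in each ST array at most 14.7% did, so that in ST it was among the dimmest on the array.

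**Figure D1:**
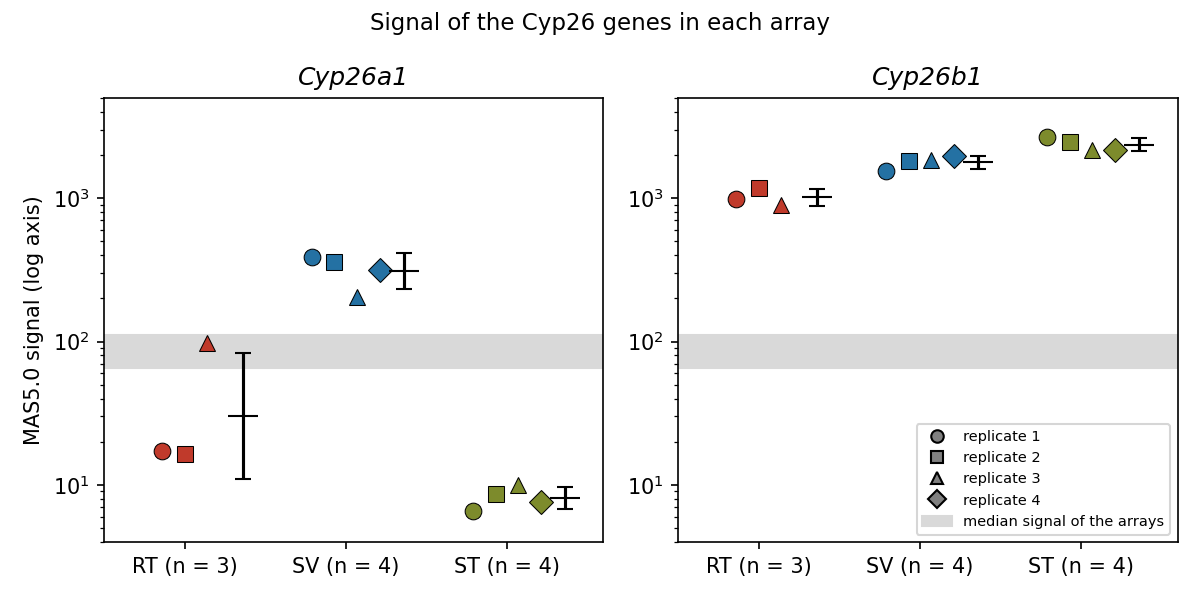
MAS5.0 signal (log axis) of Cyp26a1 and Cyp26b1 in the 3 RT, 4 SV and 4 ST arrays. Each symbol is 1 array, with its shape giving the replicate number, the black bar is the mean of log2 signals ± SD, and the grey band covers the median signals of the 11 arrays. Cyp26a1 reads 206 to 392 in SV and under 10 in all ST arrays, whereas Cyp26b1 reads 892.6 to 2666 in all 11 arrays and steps down from ST to SV to RT.

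The difference of SV from ST in Cyp26a1 was 5.26 ± 0.53 on the log2 scale (SE; limma, adjusted p = 1.46e-04), which is 38.3-fold. It was the 9th largest of 675 probe sets called higher in SV, where a call needs an adjusted p under 0.05 over all 45101 probe sets and over 2-fold. Of all probe sets 1.5% were called higher in SV than in ST, and 4.64% had every SV array above every ST array, as Cyp26a1 did. The study singled out Cyp26a1 on these arrays, so its test is no independent evidence. In pooled tissue, fewer cells of a type and less RNA per cell cannot be told apart. Signals in ST were so dim that the size of the fold depends on how dim values are treated: with all signals under 32 set to 32 it was 3.27 (adjusted p = 0.0050), and with 32 added to each signal 3.09. Within replicates 1 and 2 alone it was 5.64 (adjusted p = 0.0011), and within replicates 3 and 4 alone 4.87 (adjusted p = 0.115).

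Against RT, Cyp26a1 was higher in SV by 3.36 ± 0.58 (SE; limma, adjusted p = 0.00187), a 10.3-fold difference and the 26th largest of 1332 called higher. Calls in this direction made up 2.95% of all probe sets, and 10.1% had every SV array above every RT array. This size depended on RT replicate 3 and was larger, at 4.20, without that array. It was 4.48 within replicates 1 and 2 (adjusted p = 0.00128) and 1.39 within replicates 3 and 4, where RT had the one array. Dim values mattered here too, as RT replicates 1 and 2 read 17.3 and 16.4. With a floor of 32 the difference was 2.74 (adjusted p = 0.00266), and with 32 added to each signal 2.34.

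RT against ST was the weakest of the differences in Cyp26a1. It was 1.90 ± 0.58 (SE; limma, adjusted p = 0.0266) and passed as a call, in a comparison where 10.2% of all probe sets were called higher in RT and 20.1% had every RT array above every ST array. Without RT replicate 3 it was 1.06 (adjusted p = 0.124), without ST replicate 1 it was 1.80 (adjusted p = 0.0542), and with a floor of 32 it was 0.53 (adjusted p = 0.414). So Cyp26a1 stood highest in SV, and RT and ST, though their arrays did not overlap, did not differ past the threshold once either of these arrays was left out.

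RT replicate 3 differed from the other RT arrays in markers as well as in Cyp26a1. The 15 Sertoli cell markers had a median of -0.95 there relative to the ST mean on the log2 scale, against -1.84 and -1.78 in RT replicates 1 and 2. The 10 rete testis markers had 5.45 there, against 6.65 and 6.34. Their part in the Cyp26a1 signal of that array was not tested. Across SV arrays the Sertoli marker median was -0.60 to -0.13 and the rete marker median 2.46 to 4.13. SV replicate 3, which read lowest for Cyp26a1 in SV (206), had the lowest median of the SV arrays in the rete, myoid, Leydig, macrophage, endothelial, fibroblast and mesothelial lists and the highest in the Sertoli and germ cell lists. Their part in its Cyp26a1 signal was not tested. Of the 10 cell type lists the largest median difference of SV from ST was 3.28, in the rete markers. Their median difference of RT from ST was 6.31, and Cyp26a1 was highest in SV. By in situ hybridization the study reports Cyp26a1 in SV Sertoli cells of W/Wv testes, and in the SV of wild-type testes. On the arrays, the part of any listed cell type in the Cyp26a1 signal of SV was not tested.

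**Figure D2:**
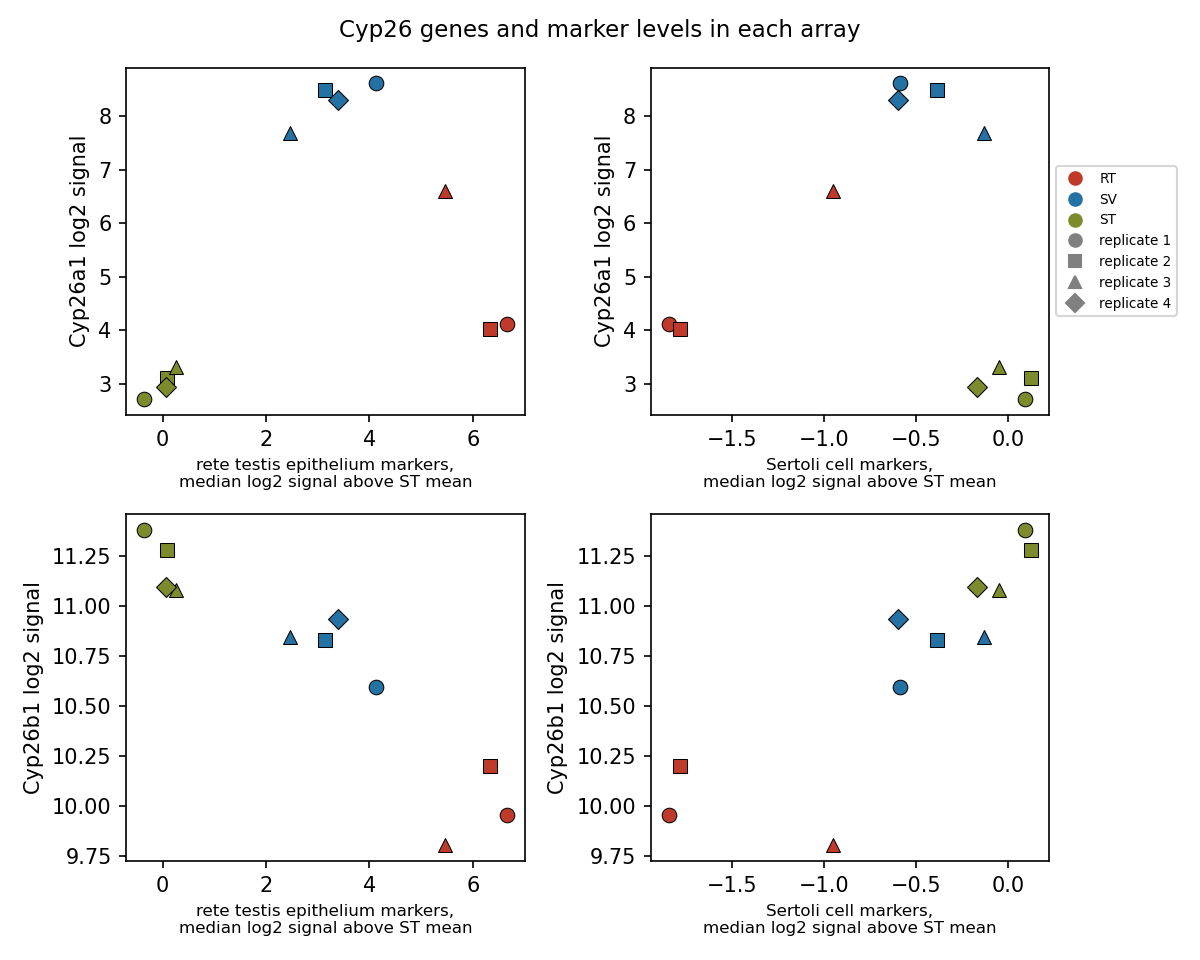
Log2 signal of Cyp26a1 (top) and Cyp26b1 (bottom) in each of the 11 arrays against the level of marker lists, given as the median log2 difference from the mean of the ST arrays, for the rete testis markers (left, 10 genes) and of the Sertoli cell markers (right, 15 genes). Colour gives the region and shape the replicate number. Cyp26a1 is highest in the SV arrays, whose rete markers (2.46 to 4.13) lie between those of ST and RT, and Cyp26b1 steps down from ST to SV to RT.

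Cyp26b1 followed the opposite order, highest in ST and lowest in RT. Its signal was 2666, 2483, 2162 and 2185 in the ST arrays. In SV it was 1543, 1820, 1840 and 1958. In RT it was 993.0, 1175 and 892.6. The 3 groups did not overlap, and the ranges of SV and ST lay close together. The means were 2374 ± 243 in ST (SD, n = 4), 1790 ± 176 in SV (SD, n = 4) and 1020 ± 143 in RT (SD, n = 3). On every array 82.1% or more of the probe sets read at or below it.

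Between ST and RT Cyp26b1 fell by 1.22 ± 0.14 on the log2 scale (SE; limma, adjusted p = 2.71e-05), a 2.33-fold difference. Of all probe sets 5.48% were called lower in RT and 13.6% had every ST array above every RT array. This call held when any one array was left out (-1.33 to -1.13) and within each set of replicates (-1.25 and -1.28). Between SV and ST the difference of Cyp26b1 was -0.41 ± 0.13 (adjusted p = 0.136), and it was not called. Calls of this kind were rare, at 0.0665% of all probe sets lower in SV than in ST, and 2.81% had every ST array above every SV array. Between SV and RT it was 0.82 ± 0.14 higher in SV (adjusted p = 0.00164), 1.76-fold and so under the 2-fold threshold. With each array centred on its median this difference was 1.13 and was called (adjusted p = 0.00113).

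The level of Cyp26b1 in SV lay between those of ST and RT. On the signal scale the SV arrays were 61.4%, 40.9%, 39.4% and 30.7% of the way from the ST mean to the RT mean in replicates 1 to 4 (43.1% ± 13.0, SD, n = 4). Among the 2473 probe sets called lower in RT than in ST, Cyp26b1 included, the median of this share was 40.3%, with quartiles of 28.3% and 52.4%, so that Cyp26b1 was close to the middle of them. The 9 Sertoli markers of this group had a median of 40.2% (25.4% to 59.5%). The rete markers, which rise towards RT, gave 21.4%, 11.4%, 8.24% and 18.0% in the same SV arrays. The fall of Cyp26b1 in RT thus went together with higher rete markers and with 9 of 15 Sertoli markers called lower. The study's discussion places Cyp26b1 in peritubular myoid cells. Of 9 myoid markers 3 were called lower in RT than in ST and 1 higher. The part of any of these cells in the fall of Cyp26b1 was not tested.

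**Figure D3:**
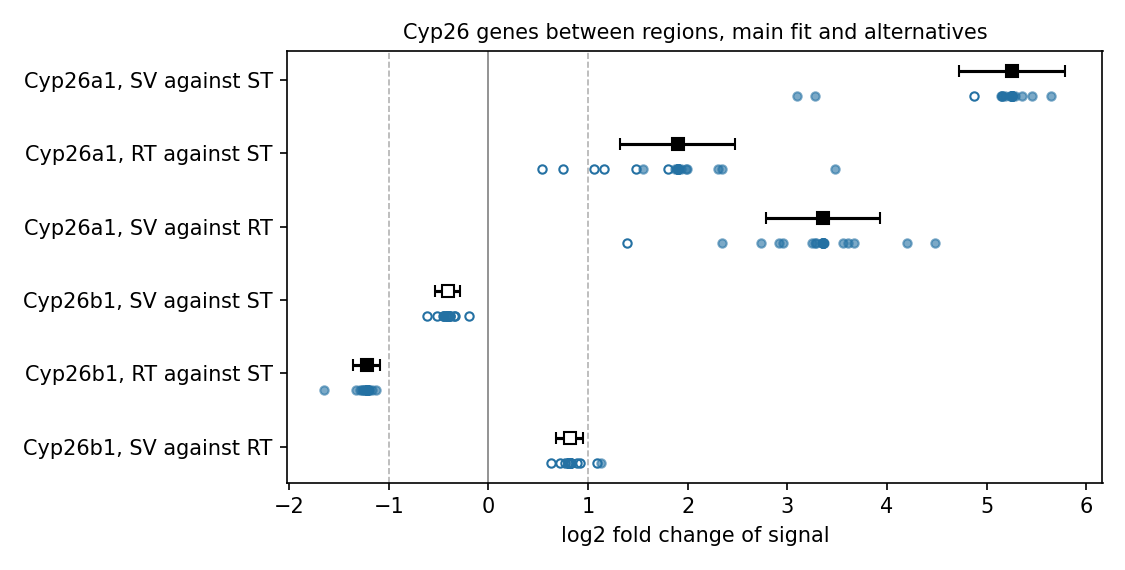
Log2 fold change of Cyp26a1 and Cyp26b1 in 3 comparisons. Squares with bars are the limma estimate ± SE, small circles below are the same value under other settings (the methods' t-test on linear signal is left out), filled symbols passed the call and open ones did not, and dashed lines mark 2-fold. All settings keep Cyp26a1 above 3 in SV against ST, whereas RT against ST runs from 0.53 to 3.48, and Cyp26b1 keeps its call only in RT against ST in every setting.

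The genes measured beside Cyp26a1 on the chromosome were not called between SV and ST. Cyp26c1, with no value here, and Exoc6 lie on one side and Myof and Cep55 on the other, in RefSeq order. Between SV and ST the log2 difference was -0.28 in Exoc6 (adjusted p = 0.553), 0.54 in Myof (adjusted p = 0.202) and -0.56 in Cep55 (adjusted p = 0.550). All 3 were called in RT against ST, at -1.22 in Exoc6, 1.95 in Myof and -2.07 in Cep55. In that comparison 10.2% of all probe sets were called higher and 5.48% lower. Cep55 was, like Cyp26a1, called higher in SV against RT (1.51, adjusted p = 0.0144), as were 2.95% of all probe sets. Beside Cyp26b1 lie Zfp638, Dysf, Exoc6b and Spr, and none of them was called in any of the comparisons. Exoc6b, the closest in direction, differed by -0.70 in RT against ST (adjusted p = 0.0254), under 2-fold.

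Around the CYP26 enzymes, 53 of 57 listed genes of retinoid supply, synthesis, binding, reception and response were measured, and the other 4 were not analysed here. In SV against ST, 1 of the 53 was called higher and 0 were called lower in limma, beside 1.5% and 0.0665% of all probe sets. At an unadjusted p under 0.05 and no fold threshold limma had 15 higher and 7 lower, and the methods' t-test without adjustment, over 2-fold, had 4 and 2. The gene called was Meis2, which encodes a homeodomain protein induced by RA. Its signal was 123 to 236 in SV against 42.0 to 76.1 in ST, a difference of 1.54 ± 0.25 (adjusted p = 0.00561), and it was higher still in RT (509 to 707). Its other probe sets were not called in SV against ST, at 1.12, 1.30 and -0.70 (adjusted p = 0.107, 0.108 and 0.871). The median difference over the 53 genes was 0.12, beside 0.00 over all probe sets. RT against ST had 10 of the 53 higher and 8 lower, in a comparison where 10.2% and 5.48% of all probe sets were called, and a median of 0.31, beside 0.13 over all. The larger number of calls in RT than in SV holds for the whole array, with 4607 higher and 2473 lower in RT and 675 and 30 in SV. SV against RT had 5 higher and 5 lower and a median of -0.06, beside -0.11 over all. Calls lower in SV made up 4.99% of all probe sets there.

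Genes of enzymes that make RA gave RNA signal in all 3 regions, and the enzymes themselves were not measured. Aldh1a1, which oxidizes retinal to RA, read between 18015 and 31415 in every array, and its differences between regions were at most 0.07 on the log2 scale in size. Aldh1a2, another RALDH gene, was called lower in RT against ST (-1.25 ± 0.22, adjusted p = 7.87e-04) and higher in SV against RT (1.38 ± 0.22, adjusted p = 0.00116), while SV and ST differed by 0.13 (adjusted p = 0.876). Aldh1a7 was not called, and neither was the brightest probe set of Aldh1a3, although a dimmer one was higher in RT than in ST (2.24, adjusted p = 0.0146). SV held Aldh1a2 at 508.5 to 778.9, overlapping the 485.4 to 693.1 of ST, in the same arrays in which Cyp26a1 was called higher.

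The step before, from retinol to retinal, had 2 of 10 genes called higher and 2 lower in RT against ST. Of all probe sets 10.2% and 5.48% were called in these directions. Rdh16 rose from 1.53 to 15.3 in ST, among the dimmest signals, to 47.8 to 204.7 in RT, a log2 difference of 4.97 ± 0.95 (adjusted p = 0.00159) that was 1.86 with a floor of 32 (adjusted p = 0.00954). Rdh5, like Rdh16 a retinol dehydrogenase gene, rose by 1.41 ± 0.37 (adjusted p = 0.0115). Adh4 fell by 3.16 ± 0.65 (adjusted p = 0.00257; with the floor -2.30) and Adh7 by 1.64 ± 0.31 (adjusted p = 0.00145), both alcohol dehydrogenases that can oxidize retinol. None was called in SV against ST. Rdh10, named here after its values were seen, encodes a main retinol dehydrogenase of the embryo, and its brighter probe set read 1456 to 1802 in SV, above the 758.5 to 1079 of ST and the 691.4 to 1058 of RT. Its difference between SV and ST was 0.83 ± 0.16 (adjusted p = 0.0126), under 2-fold, and its other probe set gave 1.11 (adjusted p = 0.00213), which was called.

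Of the genes that supply, store or bind retinoids, Rbp4, which carries retinol in blood, and Ttr, which binds RBP4, were lower in RT than in ST (-1.77 and -1.46, adjusted p = 4.00e-05 and 0.0307, the call of Ttr being lost with a floor of 32, at adjusted p = 0.0544). Dhrs4, which reduces retinal, was higher in RT (2.01 ± 0.20, adjusted p = 1.03e-05). Fabp5, one of the proteins that bring RA to the nucleus, was lower in RT (-2.27 ± 0.28, adjusted p = 6.27e-05) and did not pass in SV (-0.69, adjusted p = 0.252). Its dimmer probe set was also called lower in RT (-2.69). In SV against ST that probe set gave -0.98 (limma, adjusted p = 0.0361), under 2-fold and so not called. Crabp1 and Crabp2, which bind RA in the cytosol, were not called in any comparison, and Crabp2 read under 13 in every array.

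None of the other P450 genes whose products act on retinoids was called in SV against ST. Cyp1b1 was called higher in RT against ST (1.60, adjusted p = 5.07e-05) and Cyp2s1 lower (-1.10, adjusted p = 0.00167). In SV against ST they gave 0.86 and -0.59 (adjusted p = 0.0243 and 0.170), with no call. Cyp2c39 read 3.74 to 45.6, under the median of every array, and its call in RT against ST (adjusted p = 0.0143) was lost with a floor of 32 (0.05, adjusted p = 0.926). Of the genes that pass electrons to microsomal P450 enzymes, Cyb5r3 was higher in RT (1.44, adjusted p = 3.14e-05), and Cyb5a and Cyb5b were not called.

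None of the 6 receptor genes was called in limma in any comparison, and at an unadjusted p under 0.05 there was 1 higher and 0 lower in SV against ST and 2 higher and 1 lower in RT against ST. Rarb, itself a gene that RA induces, read 34.6 to 130.8 in SV and 4.76 to 33.7 in ST. This difference of 2.68 ± 0.69 missed the threshold (adjusted p = 0.0656) and was 1.27 with a floor of 32. Its SV and ST arrays did not overlap, and 4.64% of all probe sets had every SV array above every ST array. Its RT arrays, at 27.4 to 54.6, overlapped both. Among the 8 measured genes known to be induced by RA, Meis1, Meis2, Nr2f1 and Nr2f2 were higher in RT than in ST by 1.70, 3.26, 6.13 and 1.21, all transcription factor genes. Nr2f1 read as low as 1.33 in ST, and its difference was 4.57 with a floor of 32. Stra8, which germ cells need for meiosis, was lower in RT by 3.13 ± 0.39 (adjusted p = 6.47e-05), in the same arrays in which germ cell markers had medians of -3.01 to -1.16 relative to the ST mean. Of the 8 measured germ cell markers 4 were lower in RT and 1, Gfra1, was higher (4.34, adjusted p = 5.82e-06), and their part in the fall of Stra8 was not tested. In SV it was 104.0 to 244.8, against 223.5 to 408.8 in ST (-1.25, adjusted p = 0.107). Nr5a1, Sox9 and Foxl2, regulators of Cyp26b1 in the fetal gonad, were not called. Both probe sets of Nr5a1 were lower in RT than in ST in the estimate (-0.74 and -0.72) and neither was called there. In SV against RT they gave 0.69 (adjusted p = 0.0507) and 3.18 (adjusted p = 0.00985), the latter a call on a dim probe set with mean signals of 2.82 in RT and 25.2 in SV.

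**Figure D4:**
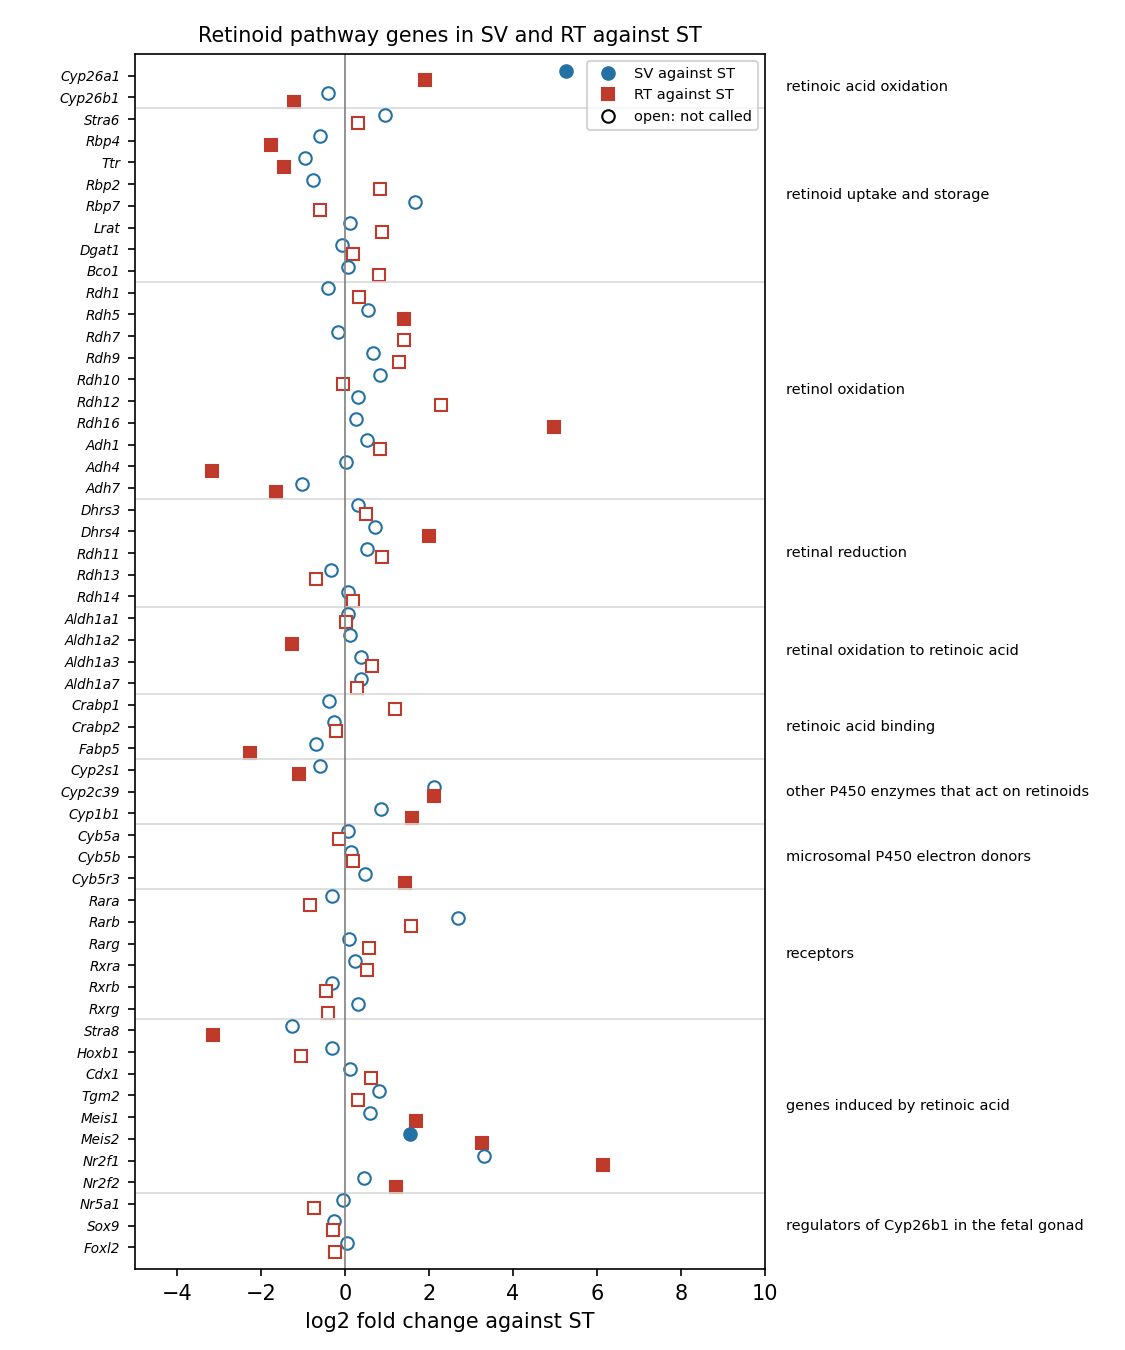
Log2 fold change against ST of the 2 Cyp26 genes and 53 other retinoid genes, by role, in SV (blue circles) and in RT (red squares), 1 probe set per gene. Filled symbols passed the call. In SV only Cyp26a1 (5.26) and Meis2 (1.54) are filled, and in RT 10 of the 53 genes are filled to the right and 8 to the left.

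The genes with the pattern most like Cyp26a1 over the 11 arrays, by Pearson correlation of log2 signal among 22500 probe sets, were Lrp11, Lgals1, Tgm2, Bcan, Clca3a2, Rtn1, Tnmd and Wfdc18 (r = 0.949 to 0.979, across arrays of 3 regions, a description with no test). Lgals1 encodes galectin-1, Tgm2 a transglutaminase that RA induces, Bcan the proteoglycan brevican, Rtn1 a reticulon and Tnmd tenomodulin. Lrp11 was nearest, at 1705 ± 430 in SV, 447 ± 374 in RT and 218 ± 12.8 in ST. Tnmd had a fold closest to that of Cyp26a1, at 691 ± 201 in SV (SD, n = 4) and 22.2 ± 12.2 in ST (SD, n = 4), a difference of 5.06. Tgm2 was also in the list of RA-induced genes, and its probe set here, not the brightest of the gene, read 5224 ± 289 in SV against 2931 ± 249 in ST, a difference of 0.84 and so under 2-fold. The 8 differed from Cyp26a1 in size, from 0.84 in Tgm2 to 5.06 in Tnmd between SV and ST.

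Those most like Cyp26b1 were Mtmr1, Epb41l3, Ppat, Vps26b, Med4, Axl, Bag2 and Elmo1 (r = 0.975 to 0.984). Mtmr1 encodes a phosphoinositide phosphatase, Ppat an enzyme of purine synthesis, Med4 a Mediator subunit and Axl a receptor tyrosine kinase. Mtmr1 read 1259 ± 146 in ST, 972.0 ± 83.7 in SV and 545.8 ± 33.5 in RT. All 8 were lower in RT than in ST, with log2 differences from -1.16 in Vps26b to -2.23 in Epb41l3, and none of them was called between SV and ST.

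**Figure D5:**
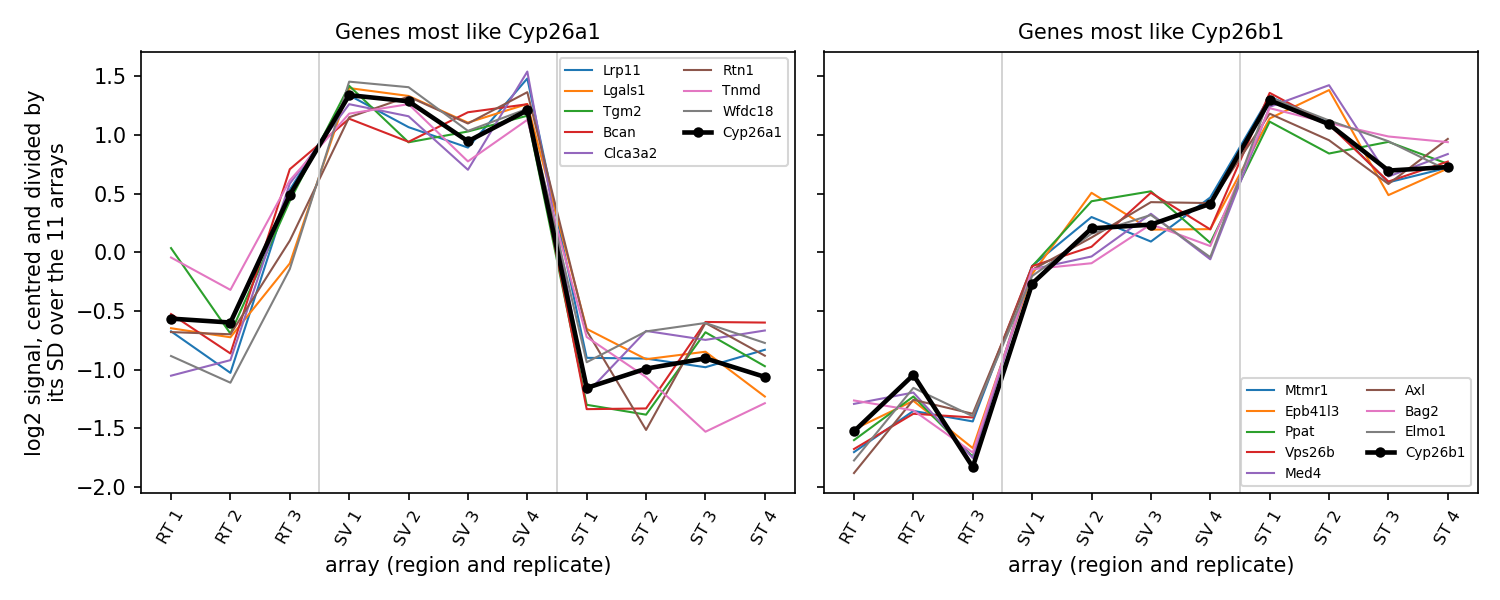
Log2 signal, centred and divided by its SD over the 11 arrays, of Cyp26a1 (left, black) and Cyp26b1 (right, black) with the 8 genes whose signal correlates best with each (colours). Lines join the arrays of one gene to make it easy to follow and carry no order. Left, the 4 SV arrays are high and RT replicate 3 lies between them and RT replicates 1 and 2, and right, ST is high, SV is intermediate and RT is low.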

How the data were processed

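The authors hybridized cRNA of pooled pieces to Affymetrix Mouse Genome 430 2.0 arrays, summarized probe intensity to MAS5.0 signals and deposited these on a linear scale, 45101 per array. Scaling sets the mean of each of the 11 arrays, with 2% trimmed at both ends, to 500.0. No signal is 0, and no detection calls were used here. Gene names came from the platform annotation: 34958 probe sets carry 1 symbol, 932 several and 9211 none. Regions were taken from the labels. Log2 signals without an added constant or filter of all 3 regions entered one limma 3.58.1 model (R 4.3.3; eBayes, trend on intensity), p was adjusted after Benjamini and Hochberg over the whole array, and a call needed an adjusted p under 0.05 and over 2-fold. Fold changes are differences of mean log2 signal with the limma SE. The number of arrays limits the precision. The study's methods name Student's t-test against ST, which was run as an alternative. Other alternatives were the 2 regions alone, quantile normalization, median centring, 32 added to the signal, a floor of 32, no dim probe sets, no trend, no fold threshold, a replicate block, a block for replicates 1 and 2 against 3 and 4, each set alone and leaving out each array. Members, gene lists and rules were chosen with earlier results of these data known. For retinoid and marker genes 1 probe set per gene was used, that with the highest mean log2 signal. Called retinoid genes are named, up to 4 a list, with the RALDH, receptor and binding protein genes, and 8 genes per pattern with a mean above the median of all probe sets in at least 1 region. Promoters are those of RefSeq (GRCm38.p6), and gene order came from the RefSeq gene table. Plots used matplotlib 3.10.9 under Python 3.11.15. The in situ hybridization, qRT-PCR and bead experiments were not analysed here.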

Additional observations from a re-analysis of the deposited data

How the results depend on the processing

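Directions of all Cyp26a1 and Cyp26b1 differences held in every alternative run. Replicates 3 and 4 alone gave no call for Cyp26a1 in SV against ST (4.87) or in SV against RT (1.39), with 1 RT array that was assumed to vary like the others, and the methods' t-test with adjustment gave none in SV against RT (3.36, adjusted p = 0.0737). For RT against ST the Cyp26a1 call was lost with limma on the 2 regions (1.90, adjusted p = 0.0979), the adjusted methods' t-test (1.90, adjusted p = 0.148), that test on linear signal (2.41), median centring (1.48), 32 added (0.75), a floor of 32 (0.53) and replicates 1 and 2 alone (1.16). Leaving out 1 array gave 1.06 to 2.34, with the call lost without RT replicate 3 and without ST replicate 1. Cyp26b1 in SV against RT became a call with median centring (1.13) and with no fold threshold (0.82). Leaving out dim probe sets drops Cyp26a1, so that alternative gave it no value.

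Counts of retinoid genes in SV against ST moved from 1 higher and 0 lower to 4 and 2 (unadjusted methods' t-test), 0 higher (adjusted), 5 and 2 (linear), 4 and 1 (replicate block, and block of replicate sets), 3 and 1 (replicates 1 and 2 alone), 0 higher (replicates 3 and 4 alone) and 2 higher (probe set of largest t). With replicates 3 and 4 alone RT against ST had 5 higher and 2 lower (from 10 and 8) and SV against RT 0 and 0 (from 5 and 5). For SV against RT the adjusted methods' t-test gave 0 and 2, and median centring 8 and 2. Median centring moved the median of all probe sets in RT against ST from 0.13 to -0.29, and the higher calls from 65.1% of all calls to 34.9% (quantile normalization, 49.6%). In SV against RT this share went from 37.2% to 66.8% (quantile, 52.6%), and the median from -0.11 to 0.20.

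Replicate numbers are shared between regions. Same-number arrays correlated at 0.069 to 0.190 over all probe sets, not over 0.1 in every pair, and 10 of 11 arrays were closest to one of their own number over the probe sets brighter than the median, a hint from the data. With the replicate block no Cyp26 call changed. Cyp26a1 kept 5.26 in SV against ST (adjusted p = 2.18e-04), and the adjusted p of Cyp26b1 there was 0.0481 at -0.41, under 2-fold. By Spearman correlation 0 of the 8 genes named for Cyp26a1 and 2 of the 8 for Cyp26b1 stayed among the first 8, and their ranks ran from 13 to 184 and from 3 to 137. Dim signal limits Cyp26a1 in ST, where its fold is uncertain.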
